A study of Mus musculus with 42 samples.

Results

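The 9 genes described here encode part of the JAK and STAT pathway and its feedback inhibitors in BMDM, mouse macrophages obtained in culture from precursors of the bone marrow. They were taken by name, as the rows of the count table whose identifiers belong to the kinases Jak1 and Jak2, the transcription factors Stat2, Stat3, Stat5a and Stat6, and the inhibitors Socs1, Socs3 and Cish. All 9 were found among 37310 genes and all 9 passed the filter on low counts, which kept 11624 genes. The study made 42 RNA-seq libraries, 3 in each of 14 groups, from WT mice and mice labelled as KO of Irf5, a transcription factor of the interferon regulatory family. The KO mice had floxed Irf5 alleles (flox/flox) and the LysM-Cre transgene, a Cre recombinase placed in the myeloid gene Lyz2, on a C57BL/6 background, and all mice were young adult males. Cells of each genotype received no agent (Control) and were taken at 0, 2 or 24 h, or were given bacterial lipopolysaccharide (LPS) or palmitate, a saturated fatty acid, for 2 or 24 h. Every group had been differentiated in medium conditioned by L929 fibroblasts, a source of macrophage growth factor.

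Many cytokine receptors have no kinase activity of their own and signal through JAK kinases bound to their tails. The kinases phosphorylate STAT proteins, which pair, enter the nucleus and switch on target genes. STAT2 works with IRF9 downstream of type I interferon, STAT3 serves IL-10 and IL-6, STAT5 serves growth factors such as GM-CSF, and STAT6 serves IL-4 and IL-13. SOCS1, SOCS3 and CIS (the product of Cish) are themselves products of STAT target genes and switch the pathway off again, by blocking the kinases or the receptor tails. In macrophages LPS acts on TLR4, which is not a JAK-coupled receptor, and the cytokines that the cells then secrete act on JAK-coupled receptors.

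The total count per library was 2848793 to 7743442 with a median of 5625399, and 3 counts corresponded to 0.387 to 1.05 CPM. CPM is the count scaled to a common library size, here with the TMM method. Irf5 itself was not lower in the libraries labelled KO, at 267 to 430 CPM against 210 to 389 CPM in those labelled WT, which goes against the label. It was called higher in KO in 4 of 7 conditions, with a log2 difference of 0.47 ± 0.06 (SE) in Control 0 h (adjusted p = 9.12e-08). A count over a whole gene does not separate its exons, so the libraries are called by their labels throughout. The summed level of 6 macrophage markers was 4773 to 8609 CPM and each marker was detected in every group. A list of 4 fibroblast markers summed to 0 to 305 CPM, and libraries of the same group could lie at either end of that range. No 2 libraries of a group agreed within sampling noise. The labels do not say whether libraries of a group came from separate mice, so the p-values measure the spread between these libraries, which may be technical.

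Promoters of the 4 genes in which a STAT or interferon motif was found are shown. These were also the 4 members whose level varied most between groups. That was seen with both results known, and a part of the motifs in the variation was not tested. Each sequence is the RefSeq window on GRCm38.p6 from 250 bases before to 50 bases after the annotated start, written 5′ to 3′ on the strand of the gene, with motif matches in capitals.
Socs3, chr11:117969317-117969616, minus strand: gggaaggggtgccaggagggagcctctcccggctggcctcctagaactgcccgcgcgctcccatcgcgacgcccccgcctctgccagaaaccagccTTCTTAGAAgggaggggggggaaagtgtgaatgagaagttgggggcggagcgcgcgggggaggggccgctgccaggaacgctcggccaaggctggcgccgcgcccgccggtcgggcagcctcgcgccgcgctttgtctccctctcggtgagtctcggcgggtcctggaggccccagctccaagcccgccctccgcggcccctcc
Cish, chr9:107296409-107296708, plus strand: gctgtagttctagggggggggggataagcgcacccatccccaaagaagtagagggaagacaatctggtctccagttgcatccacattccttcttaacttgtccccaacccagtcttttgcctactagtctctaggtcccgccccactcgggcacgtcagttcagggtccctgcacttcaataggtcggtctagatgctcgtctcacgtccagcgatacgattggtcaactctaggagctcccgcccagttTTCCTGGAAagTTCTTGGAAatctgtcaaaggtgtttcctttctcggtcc
Socs1, chr16:10785487-10785786, minus strand: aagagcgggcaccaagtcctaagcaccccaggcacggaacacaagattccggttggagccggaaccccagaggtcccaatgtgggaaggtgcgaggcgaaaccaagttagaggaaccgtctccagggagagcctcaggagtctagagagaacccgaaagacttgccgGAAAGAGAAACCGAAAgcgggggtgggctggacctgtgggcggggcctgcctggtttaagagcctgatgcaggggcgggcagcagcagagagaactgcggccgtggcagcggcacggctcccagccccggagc
Stat2, chr10:128270248-128270547, plus strand: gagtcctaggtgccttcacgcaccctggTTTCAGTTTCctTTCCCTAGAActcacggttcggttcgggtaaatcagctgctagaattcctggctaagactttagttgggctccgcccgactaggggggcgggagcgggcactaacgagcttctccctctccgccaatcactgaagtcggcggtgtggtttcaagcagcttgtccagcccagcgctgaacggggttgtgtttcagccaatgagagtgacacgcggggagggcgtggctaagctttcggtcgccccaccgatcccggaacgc

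Motifs were searched on both strands. The gamma-activated site TTCNNNGAA, the letters that STAT pairs commonly recognise, occurred 1 time in Socs3 (bases 97 to 105 of the window) and 2 times in Cish (bases 251 to 259 and 262 to 270), and in 8.30% of 32851 promoters of the same length. The wider site with 4 bases between TTC and GAA, associated with STAT6, occurred in Stat2 (bases 41 to 50) and in 6.95% of promoters. The core of the interferon-stimulated response element, GAAA repeated after 2 free bases, occurred in Stat2 (bases 29 to 38) and as 2 overlapping matches in Socs1 (bases 168 to 177 and 174 to 183), and in 3.44% of promoters. The windows of the other 5 members held none of the 3 motifs. These are matches of letters and were not tested for binding.

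By the GRCm38 (mm10) gene models Stat2 (chr10:128270559-128292849, plus strand) and Stat6 (chr10:127642986-127660957, plus strand) lay 609601 bases apart. Stat3 (chr11:100885098-100939540, minus strand) and Stat5a (chr11:100859351-100885169, plus strand) overlapped by 72 bases on opposite strands. Socs3 was at chr11:117966079-117970047 (minus strand), Socs1 at chr16:10782240-10785536 (minus strand), Cish at chr9:107296026-107302784 (plus strand), Jak1 at chr4:101152367-101265282 (minus strand) and Jak2 at chr19:29251828-29313080 (plus strand). Stat6 also overlapped Nab2 by 40 bases and Jak1 overlapped Raver2 by 4, in each case on the other strand. Cish overlapped Gm17040 by 1167 bases and Gm17041 by 1459 bases on the other strand, exons included. The mean counts of Gm17040 and Gm17041 were 0.31 and 0.238. Whether the authors counted by strand is not given in the sources used here, so reads in these overlaps could have been given to either gene.

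Per kilobase of exon, the order of the members changed with the condition. In WT Control 0 h the highest levels were those of Jak1, at 49.2 ± 2.01 CPM per kilobase (SD, n = 3), and Stat6, at 45.6 ± 1.30, and their libraries did not overlap. Stat3 (10.9 ± 0.553), Jak2 (8.91 ± 0.966) and Stat2 (7.54 ± 0.644) followed, and of these Jak2 and Stat2 lay close, with a lowest Jak2 library of 8.35 and a highest Stat2 library of 8.15. Stat5a (2.54 ± 0.188), Socs3 (0.885 ± 0.462), Socs1 (0.241 ± 0.0690) and Cish (0.0941 ± 0.0342) were lowest. At LPS 2 h in WT Socs3 came first, at 264 ± 19.7 CPM per kilobase, and the neighbours Jak2 (58.8 ± 2.07) and Jak1 (56.7 ± 0.864) overlapped. At LPS 24 h in WT Stat2 came first, at 62.1 ± 8.09 CPM per kilobase, and overlapped Stat6 (49.3 ± 5.14), which overlapped Jak1 (48.8 ± 2.71). With the longest transcript as the length in place of all exons, the first place in each of these WT groups was unchanged. Jak2 and Stat2 changed places in Control 0 h. Jak1 moved ahead of Jak2 at LPS 2 h and ahead of Stat6 at LPS 24 h, and some lower places changed too.

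LPS raised the SOCS genes within 2 h. The question this comparison addresses is which parts of the pathway respond to a bacterial stimulus, with Control of the same time and genotype as background. By edgeR's quasi-likelihood test with Benjamini-Hochberg adjustment over 11624 genes, called at an adjusted p under 0.05, 5 of 9 members rose at LPS 2 h in WT and 9 of 9 in KO. Over all genes tested 23.1% were called in WT and 23.9% in KO, in either direction. Libraries of LPS and Control did not overlap for 35.2% of genes in WT and 34.1% in KO at 2 h. At 24 h these shares were 48.1% and 50.2%, and the statements on overlap below are to be read against them. In bulk RNA a change per cell and a change in which cells are present cannot be told apart. The summed level of 3 cell cycle markers (Mki67, Top2a and Cdk1) moved with LPS too, at 649 to 811 CPM in WT LPS 2 h against 242 to 388 in WT Control 2 h, and its part in the members' changes was not tested.

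Socs3, which binds receptor tails shared by the IL-6 family and blocks JAK there, changed most. Its level was 12.8, 11.1 and 14.2 CPM in the WT Control 2 h libraries and 756, 822 and 708 CPM in the WT LPS 2 h libraries. In KO it was 12.1, 12.2 and 10.5 CPM in Control 2 h and 870.1, 794 and 758 CPM in LPS 2 h. Every LPS library lay far above every Control library in both genotypes. The log2 fold change was 5.90 ± 0.13 (SE, n = 3 per group, adjusted p = 3.59e-38) in WT and 6.12 ± 0.13 (adjusted p = 1.54e-38) in KO, a fold of 59.7 and 69.4. By 24 h of LPS the level had come down to 35.3, 46.2 and 40.4 CPM in WT and 46.8, 41.1 and 48.8 CPM in KO. These libraries still lay above Control 24 h, where the range was 3.06 to 3.37 CPM in WT and 2.19 to 3.40 CPM in KO. The log2 fold change at 24 h was 3.69 ± 0.20 in WT and 3.97 ± 0.20 in KO (adjusted p = 1.62e-21 and 5.26e-23).

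Cish, whose product competes with STAT5 for receptor tails, was near the detection floor without LPS. WT Control 2 h libraries held 6, 14 and 3 counts of Cish (1.16, 2.32 and 0.445 CPM), and WT LPS 2 h libraries held 77, 190 and 179 counts (27.5, 39.0 and 33.2 CPM). In KO, Control 2 h libraries had 1.45, 0.895 and 1.02 CPM and LPS 2 h libraries 33.8, 38.9 and 34.4 CPM. The groups did not overlap in either genotype. The log2 fold change was 4.67 ± 0.39 in WT and 4.97 ± 0.40 in KO (adjusted p = 2.79e-14 and 7.51e-15). The ratio of summed counts, scaled to the library totals, was 23.8 in WT with an exact 95% interval of 15.7 to 38.0, and 28.5 in KO with an interval of 18.0 to 47.8, which cover counting error only. At 24 h Cish was low again, at 2.05, 1.16 and 0.459 CPM in WT LPS and 0.596, 0.187 and 1.32 CPM in KO LPS. It did not pass the test at that time (log2 1.45 ± 0.68 in WT and 0.97 ± 0.76 in KO, adjusted p = 0.0875 and 0.335). Without WT LPS 24 h library 3 the WT value was 1.86 and passed, at an adjusted p of 0.0296.

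Socs1, which inhibits JAK kinases directly and is known for restraining interferon signalling, was spread widely in WT at LPS 2 h. WT LPS 2 h libraries had 6.80, 18.9 and 11.3 CPM against 1.55, 0.662 and 1.33 CPM in Control 2 h. KO LPS 2 h libraries lay closer together, at 25.8, 24.7 and 24.2 CPM against 1.27, 1.43 and 0.170 CPM. Each LPS library was above each Control library, and each KO LPS 2 h library was above each WT LPS 2 h library. Between the labels at LPS 2 h 12.8% of all genes did not overlap, and the Socs1 label difference was not called. The log2 fold change was 3.41 ± 0.44 in WT (adjusted p = 1.22e-08) and 4.69 ± 0.45 in KO (adjusted p = 1.76e-12). Summed counts were 172 against 21 in WT, a ratio of 10.1 (95% interval 6.38 to 16.7), and 302 against 16 in KO, a ratio of 23.2 (14.1 to 41.2). At LPS 24 h Socs1 had 6.50, 2.98 and 5.66 CPM in WT and 3.73, 5.79 and 7.47 CPM in KO, where Control 24 h libraries did not exceed 0.874 and 1.46 CPM. It remained called at that time, with log2 fold changes of 3.16 ± 0.54 and 2.62 ± 0.49 (adjusted p = 3.34e-06 and 1.45e-05).

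**Figure D1:**
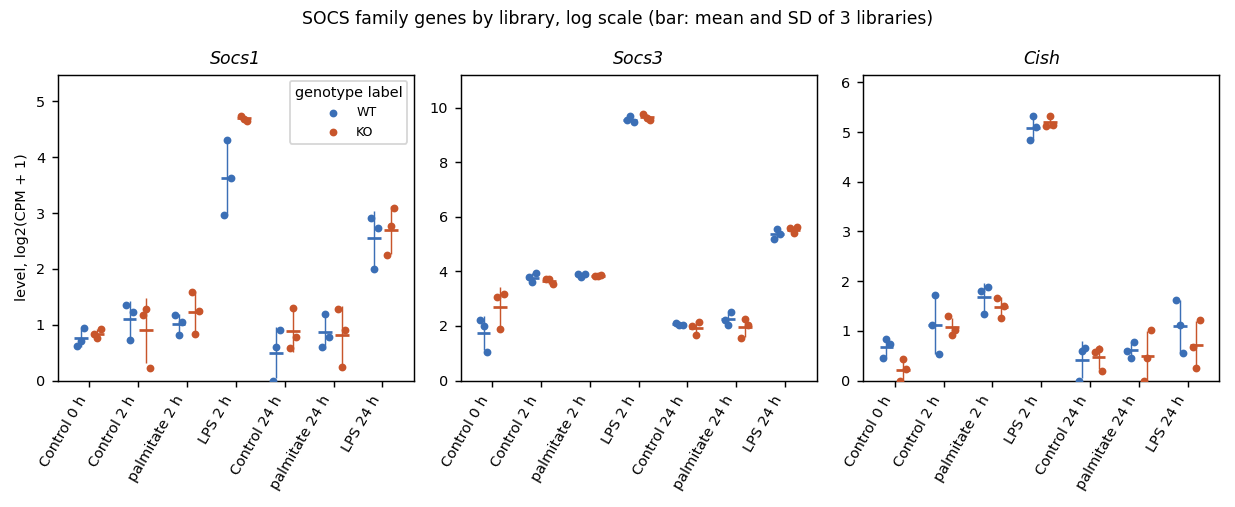
Level of Socs1, Socs3 and Cish in each library as log2(CPM + 1), for the 7 conditions on the horizontal axis and both genotype labels, with the mean and SD of 3 libraries on that scale. All 3 genes peak at LPS 2 h, Socs1 and Socs3 stay above Control at LPS 24 h, and Cish at LPS 24 h overlaps its Control.

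Among the kinases, Jak2, which serves receptors for IFN-gamma, GM-CSF and related cytokines, rose with LPS and Jak1 hardly moved. Jak2 was at 83.8, 82.7 and 79.4 CPM in WT Control 2 h and 286, 296 and 307 CPM in WT LPS 2 h. In KO it was at 90.5, 82.9 and 84.3 CPM and at 374, 341 and 332 CPM. The groups were far apart, with log2 fold changes of 1.86 ± 0.08 in WT and 2.02 ± 0.08 in KO (adjusted p = 1.70e-26 and 4.17e-28). At LPS 24 h Jak2 was at 149.9, 163 and 152 CPM in WT and 166, 141 and 168 CPM in KO, against at most 62.1 and 66.8 CPM in Control 24 h. The change was smaller than at 2 h and still called, at log2 1.45 ± 0.08 and 1.32 ± 0.08 (adjusted p = 2.49e-21 and 5.49e-20).

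Jak1, the kinase shared by interferon, IL-6 family and common gamma chain receptors, spanned group means of 344 to 413 CPM over all 14 groups, a 1.20-fold range. Its WT libraries were at 370, 384 and 386 CPM in Control 2 h and 414, 412 and 402 CPM in LPS 2 h. Although these did not overlap, as held for 35.2% of all genes, the log2 difference of 0.11 ± 0.05 did not pass (adjusted p = 0.143). In KO the libraries were at 349, 353 and 377 CPM and 447, 388 and 404 CPM, and the log2 difference of 0.19 ± 0.05 passed (adjusted p = 0.00405). That call was lost without KO Control 2 h library 1 (0.16) and without KO LPS 2 h library 1 (0.12), and also with all genes of at least 1 count (adjusted p = 0.1) and with only the libraries compared (adjusted p = 0.0887). With library totals alone as the scale, in place of TMM, it was 0.02. At 24 h the Jak1 difference was 0.03 ± 0.05 in WT and 0.01 ± 0.05 in KO, and neither passed.

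The interferon factor Stat2 responded mainly late. At 2 h its WT libraries were at 45.5, 52.8 and 42.4 CPM in Control and 60.8, 53.4 and 67.2 CPM in LPS, so that the lowest LPS library lay just above the highest Control library. The KO libraries were at 49.2, 38.8 and 42.2 CPM and 69.8, 74.8 and 82.6 CPM. The log2 fold change was 0.37 ± 0.12 in WT (adjusted p = 0.0207) and 0.81 ± 0.12 in KO (adjusted p = 3.30e-07). The WT call of Stat2 at 2 h was lost without WT Control 2 h library 1 (0.34) or 3 (0.29) and without WT LPS 2 h library 3 (0.27), and on library totals alone (0.21). At 24 h Stat2 was at 38.7, 35.1 and 38.3 CPM in WT Control and 399.8, 313 and 391 CPM in WT LPS, and at 37.2, 45.9 and 52.4 against 378, 427 and 388 CPM in KO. The log2 fold change of 3.30 ± 0.11 in WT and 3.11 ± 0.11 in KO (adjusted p = 1.44e-29 and 3.82e-29) corresponded to a fold of 9.86 and 8.66.

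Stat3, the factor downstream of IL-10 and IL-6, rose at 24 h in both genotypes. Its level was 120.2, 112 and 114 CPM in WT Control 24 h and 197, 206 and 202 CPM in WT LPS 24 h, and 115, 114 and 113 against 188, 197 and 196 CPM in KO. The groups did not overlap, and the log2 fold change was 0.81 ± 0.07 in WT and 0.76 ± 0.07 in KO (adjusted p = 2.28e-14 and 1.52e-13). At 2 h the difference was 0.14 ± 0.07 in WT (adjusted p = 0.173) and 0.25 ± 0.07 in KO (adjusted p = 0.0067). The KO call of Stat3 at 2 h was lost without KO Control 2 h library 1 (0.19), on library totals alone (0.07) and with all genes of at least 1 count (adjusted p = 0.0599).

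Stat5a and Stat6 had small differences. Stat5a was the lowest STAT member, at 13.8 to 30.0 CPM over the 42 libraries. Its KO LPS 2 h libraries were spread widely, at 30.0, 23.1 and 16.9 CPM, and overlapped Control 2 h at 17.4, 13.8 and 14.9 CPM. The log2 difference was 0.57 ± 0.16 in KO (adjusted p = 0.00764), and 0.42 ± 0.16 in WT (adjusted p = 0.0584), where it passed without WT LPS 2 h library 1 (0.50). The KO call of Stat5a was lost without KO LPS 2 h library 1 (0.37) and without KO Control 2 h library 2 (0.48), on library totals alone (0.39) and with only the libraries compared (adjusted p = 0.0756). Stat6, the factor downstream of IL-4, lay between 179.6 and 247 CPM in all libraries. Its LPS difference was 0.22 ± 0.07 at 2 h in KO (adjusted p = 0.00906) and 0.18 ± 0.06 at 24 h in WT (adjusted p = 0.0237), with 0.13 ± 0.06 at 2 h in WT and 0.14 ± 0.06 at 24 h in KO not passing. The KO call of Stat6 at 2 h was lost without KO Control 2 h library 1 (0.18) or 2 (0.19) and without KO LPS 2 h library 1 (0.16), and was 0.05 on library totals alone. It was also lost with all genes of at least 1 count (adjusted p = 0.0761) and with only the libraries compared (adjusted p = 0.0773). The WT call of Stat6 at 24 h was lost without WT Control 24 h library 2 (0.17) or 3 (0.15) and without WT LPS 24 h library 2 (0.09), and was 0.12 on library totals alone. It was lost as well with all genes of at least 1 count (adjusted p = 0.114) and with only the libraries compared (adjusted p = 0.0862).

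Library totals alone moved the median log2 difference of all genes at LPS 2 h to -0.17 in WT and -0.19 in KO, from -0.01 in both with TMM. The differences of Jak1, Stat3, Stat5a and Stat6 at 2 h, of 0.11 to 0.57 in both genotypes, are to be read against that shift. In WT, where none of these 4 was called at 2 h, Jak1, Stat3 and Stat6 were at -0.05, -0.03 and -0.03 on library totals. Under library totals 5 members in place of 9 were called at LPS 2 h in KO, namely Jak2, Stat2, Socs1, Socs3 and Cish. At LPS 24 h 6 members rose in WT and 5 in KO, the difference being Stat6, and 39.5% and 40.9% of all genes were called. At that time the cell cycle markers summed to 95.3 to 104 CPM in WT LPS against 304 to 321 CPM in WT Control, and the macrophage markers to 7440 to 8609 against 5066 to 5119 CPM, and their part in the result was not tested.

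**Figure D2:**
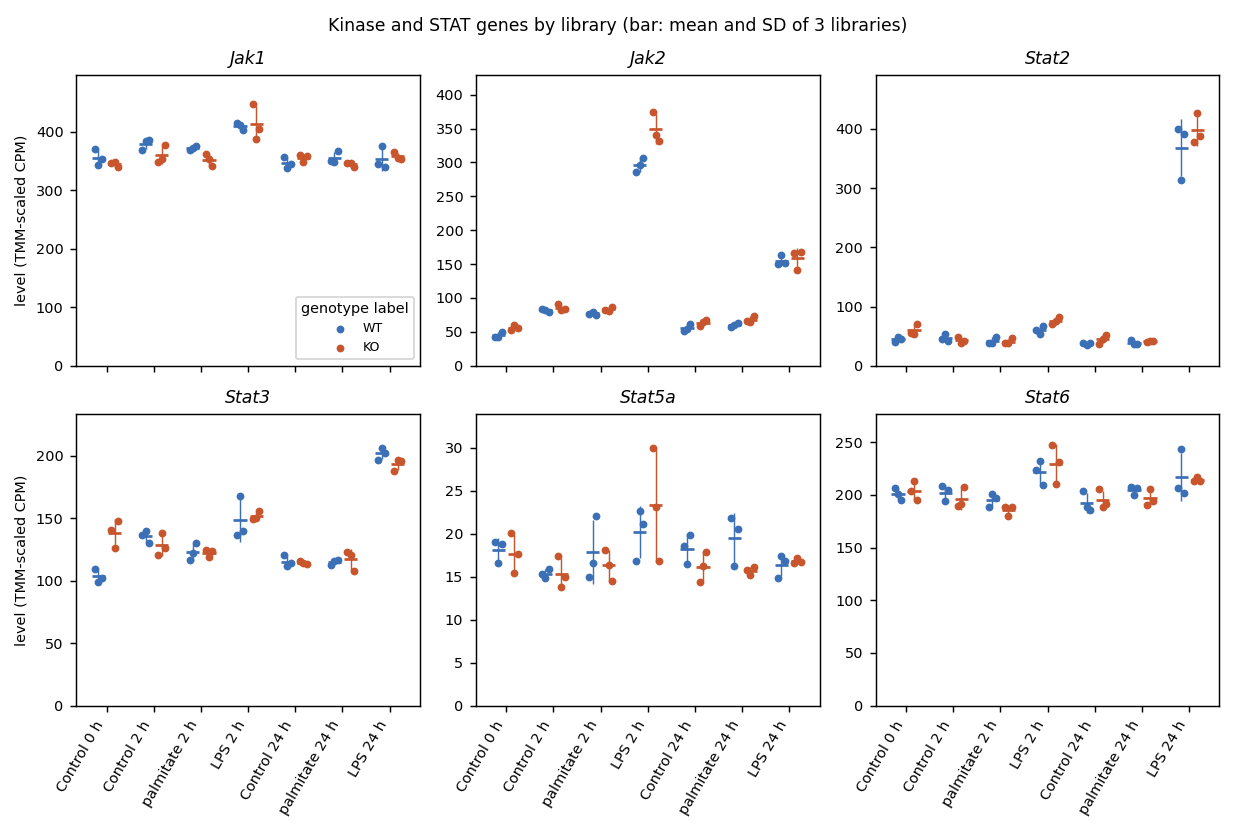
Level of the kinase and STAT genes in each library in TMM-scaled CPM, for the 7 conditions on the horizontal axis and both genotype labels, with the mean and SD of 3 libraries. Jak2 is highest at LPS 2 h, Stat2 and Stat3 at LPS 24 h, and Jak1 and Stat6 differ little between conditions.

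The early and late effects were compared directly, as the LPS effect at 24 h minus that at 2 h, each against its own Control. In WT 6 members differed between the times, and in KO 7, where 32.6% and 33.4% of all genes were called. Stat2 and Stat3 had the larger effect at 24 h. The difference for Stat2 was 2.93 ± 0.17 on the log2 scale in WT and 2.30 ± 0.16 in KO (adjusted p = 3.30e-20 and 1.18e-16), and for Stat3 0.68 ± 0.10 and 0.52 ± 0.10 (adjusted p = 1.58e-07 and 3.02e-05). Socs3, Cish and Jak2 had the larger effect at 2 h. The difference for Socs3 was -2.21 ± 0.33 and -2.15 ± 0.34 (adjusted p = 3.00e-07 and 1.02e-06), for Cish -3.22 ± 0.96 and -4.00 ± 1.08 (adjusted p = 0.00716 and 0.00267), and for Jak2 -0.40 ± 0.11 and -0.70 ± 0.11 (adjusted p = 0.0033 and 6.51e-07).

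Socs1 was early in KO, at -2.07 ± 0.75 (adjusted p = 0.0277), with a value of -0.24 ± 0.90 in WT that did not pass. The Socs1 call was lost without KO Control 24 h library 2 (-1.54), KO Control 2 h library 3 (-1.55) or KO LPS 24 h library 1 (-1.82), and the Cish call in WT without WT Control 24 h library 3 (-2.81). Jak1 in KO (-0.19 ± 0.07, adjusted p = 0.0492) and Stat5a in WT (-0.58 ± 0.23, adjusted p = 0.0476) passed narrowly, and both calls rested on most of the 12 libraries in their comparison. The Jak1 call was also lost with all genes of at least 1 count (adjusted p = 0.317), on library totals alone (0.425) and with only the libraries compared (0.111), and the Stat5a call with DESeq2 (0.0514), all genes (0.133) and library totals (0.108). The Jak1 call was kept only without KO Control 2 h library 3 or KO LPS 2 h library 2, and was lost without any other library, at values from -0.19 to -0.11. The Stat5a call was kept only without WT Control 24 h library 2 or WT LPS 2 h library 1, and was lost without any other library, at values from -0.61 to -0.48. Stat5a in KO was at -0.52 ± 0.23 (adjusted p = 0.0751) and passed without KO LPS 2 h library 3 (-0.70).

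**Figure D3:**
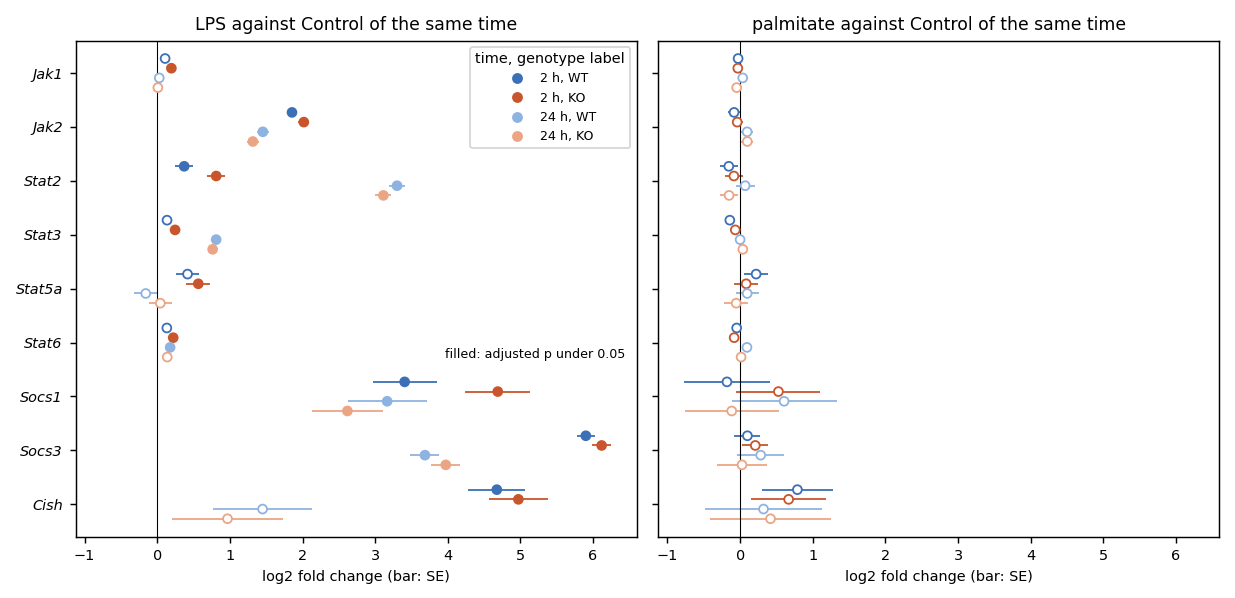
Log2 fold change of each member (vertical axis) for LPS, left, and palmitate, right, against Control of the same time and genotype label, with bars of 1 SE, and filled points where the adjusted p was under 0.05. The LPS points of Socs3 reach 6.12 and none of the palmitate points is filled.

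No member was called with palmitate. By edgeR 0 of 9 passed in each of the 4 comparisons, and DESeq2 called 0 of the members it gave an adjusted p, leaving out 3 in WT at 2 h, 2 in WT at 24 h and 2 in KO at 2 h. At an unadjusted p under 0.05 there was 1 in WT at 2 h (Stat3, log2 -0.14 ± 0.07, adjusted p = 0.662) and 0 in the other 3 comparisons. Few genes of any kind were called, 0.275% and 0.852% in WT at 2 and 24 h and 0.112% and 0.877% in KO. The kinase and STAT differences ranged from -0.16 (Stat2, WT 2 h) to 0.22 (Stat5a, WT 2 h), with SEs of 0.05 to 0.16. The counts of the inhibitors were low and their intervals wide. Cish had 14, 8 and 15 counts in WT palmitate 2 h against 6, 14 and 3 in Control, a ratio of 1.77 with a 95% counting interval of 1.02 to 3.12, and a fitted difference of 0.79 ± 0.49 (adjusted p = 0.744). In KO the Cish ratio at 2 h was 1.63 (0.903 to 3.02). Socs1 at 2 h had a ratio of 0.889 (0.441 to 1.77) in WT and 1.48 (0.764 to 2.95) in KO. Socs3 at 2 h differed by 0.10 ± 0.18 in WT and 0.21 ± 0.18 in KO. At 24 h the Socs1 ratio was 1.46 (0.589 to 3.83) in WT and 0.904 (0.412 to 1.985) in KO. The Socs3 ratio at 24 h was 1.18 (0.803 to 1.74) in WT and 0.998 (0.663 to 1.51) in KO. For Cish at 24 h it was 1.21 (0.400 to 3.82) in WT and 1.36 (0.431 to 4.63) in KO. No difference was detectable for the inhibitors at this depth, and a change within those intervals could have been missed. The palmitate effect at 24 h minus that at 2 h was called for 0 members in WT and in KO by edgeR, with 0 at an unadjusted p under 0.05 and 0 by DESeq2, which gave no adjusted p for 3 members in WT and 2 in KO, and for 0.241% and 0.172% of all genes.

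Untreated culture itself moved several members. Control 2 h against Control 0 h, averaged over both genotypes, gave 4 members higher (16.7% of all genes called). Socs3 had 1.06 to 8.10 CPM in the 6 Control 0 h libraries and 10.5 to 14.2 CPM in the 6 Control 2 h libraries, a log2 difference of 1.67 ± 0.17 (adjusted p = 1.67e-11). Jak2 differed by 0.74 ± 0.06 (adjusted p = 1.06e-14) with 42 to 60.4 against 79.4 to 90.5 CPM. Neither gene's ranges overlapped between the times, and the share of all genes for which this held was not counted. Cish differed by 1.76 ± 0.51 (adjusted p = 0.0111) and lost the call without WT Control 2 h library 2 (1.40). Stat3 differed by 0.14 ± 0.05 (adjusted p = 0.0381), a call lost without KO Control 0 h library 2, KO Control 2 h library 2, WT Control 0 h library 2 or 3, or WT Control 2 h library 1 or 2, at values from 0.11 to 0.14, and with all genes of at least 1 count (adjusted p = 0.119). The mean over both genotypes covers opposite directions for Stat3, whose mean level was 104 CPM at 0 h and 136 CPM at 2 h in WT, and 138 and 128 CPM in KO. The difference of the 2 h against 0 h change between the labels was itself called (0.49 ± 0.10, adjusted p = 0.00119). Control 24 h against Control 0 h called 2 members (16.5% of all genes), Jak2 higher by 0.25 ± 0.06 (adjusted p = 0.00191) and Stat2 with a log2 difference of -0.32 ± 0.09 (adjusted p = 0.00611).

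The comparison of genotype labels asks whether Irf5 status goes with the level of these genes. Libraries labelled KO differed from WT in 4 members in Control 0 h, all higher, where 12.5% of all genes were called. Stat3 was at 109, 99.3 and 102 CPM in WT and 140.2, 126 and 148 CPM in KO, a log2 difference of 0.41 ± 0.07 (adjusted p = 3.90e-05). No WT library reached the lowest KO library, and the call was kept under every alternative run for Control 0 h. Jak2 was at 42, 42 and 50.4 CPM in WT and 52.8, 60.4 and 55.2 CPM in KO (0.32 ± 0.09, adjusted p = 0.0101). Stat2 was at 40.7, 48.3 and 45.1 CPM in WT and 55.4, 53.9 and 69.6 CPM in KO (0.41 ± 0.12, adjusted p = 0.0148). Jak2 and Stat2 did not overlap between the labels either, as held for 28% of all genes in Control 0 h. Socs3 did overlap, at 3.62, 3.00 and 1.06 CPM in WT and 7.26, 2.74 and 8.10 CPM in KO (1.29 ± 0.30, adjusted p = 0.00251), with 47 counts in WT and 98 in KO.

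The Jak2, Stat2 and Socs3 calls of Control 0 h depended on single libraries. Jak2 no longer passed when KO library 2 (0.28) or WT library 1 (0.28) or 2 (0.27) was removed. The same held for Stat2 and KO library 3 (0.29) or WT library 1 (0.35), and for Socs3 and KO library 3 (1.00) or WT library 3 (0.85). With a fit to only the libraries compared, Socs3 was at 1.27 (adjusted p = 0.0519). Cish had 2, 5 and 5 counts in WT and 0, 2 and 1 in KO, a ratio of 0.309 with a 95% counting interval of 0.0560 to 1.15, and was not called (adjusted p = 0.256). Jak1, Stat5a, Stat6 and Socs1 differed by -0.05 to 0.13 and were not called.

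Markers of other cells moved with the label in the same libraries. The 4 fibroblast markers summed to 41.6 to 68.7 CPM in KO Control 0 h and 0.397 to 0.905 CPM in WT Control 0 h, where 1 of the 4 was at 0. The 7 granulocyte precursor markers summed to 72.9 to 81.3 CPM against 47.2 to 54.4 CPM, and the 4 B cell markers to 3.06 to 7.02 against 8.20 to 12.8 CPM. The cell cycle markers summed to 340.4 to 410.1 against 289 to 348 CPM. The part of these differences in the result for the 4 members was not tested.

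In the other 6 conditions no member was called between the labels by edgeR or by DESeq2, which gave no adjusted p for 2 members in Control 2 h, 3 in palmitate 2 h, 1 in LPS 2 h and 3 in LPS 24 h. At an unadjusted p under 0.05 there were 2 in Control 24 h (Jak2 0.17 ± 0.09 and Stat2 0.30 ± 0.13), 1 in palmitate 24 h (Jak2 0.18 ± 0.08), 3 in LPS 2 h (Jak2 0.23 ± 0.07, Stat2 0.33 ± 0.12 and Socs1 0.98 ± 0.34) and 0 in Control 2 h, palmitate 2 h and LPS 24 h. All genes called were few there as well, at 0.49% in Control 2 h, 0.12% in Control 24 h, 0.146% in palmitate 2 h, 0.0688% in palmitate 24 h, 0.465% in LPS 2 h and 0.146% in LPS 24 h. For Socs1 at LPS 2 h, where the libraries did not overlap (6.80 to 18.9 CPM in WT and 24.2 to 25.8 CPM in KO), the adjusted p was 0.194. Of all genes 12.8% did not overlap in that comparison. In KO LPS 2 h the fibroblast markers summed to 0.759 to 151 CPM and the granulocyte precursor markers to 118 to 203 CPM, against 0.371 to 0.716 and 45.4 to 65.9 CPM in WT LPS 2 h, and their part was not tested.

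**Figure D4:**
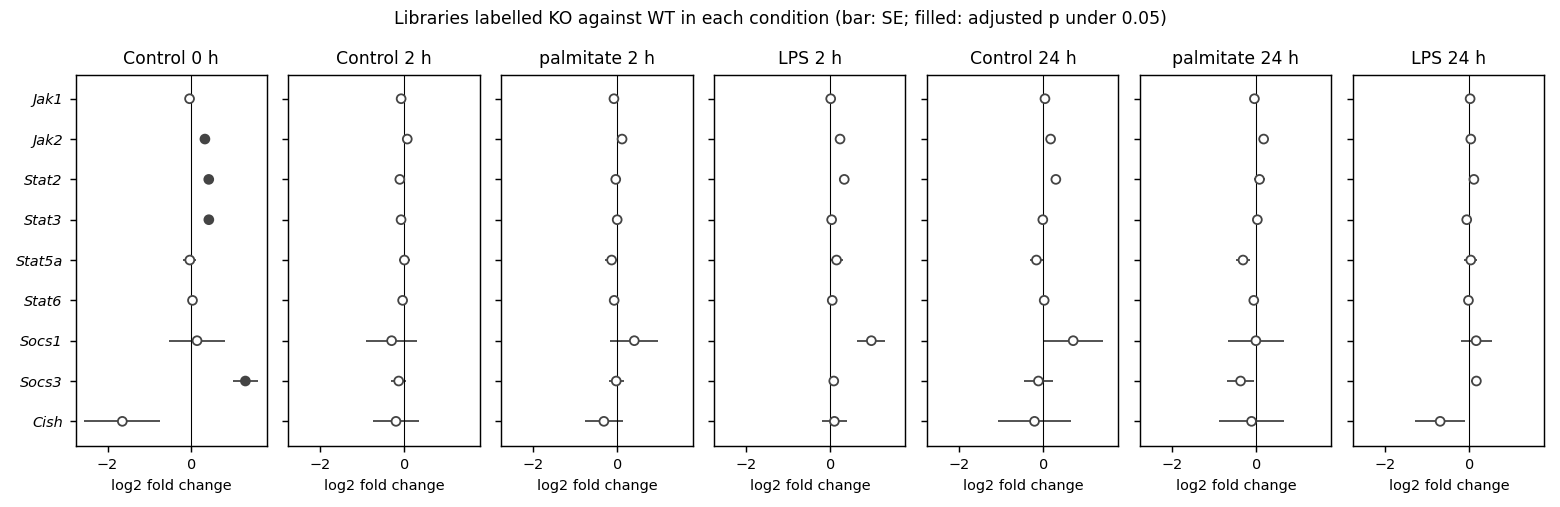
Log2 fold change of each member between libraries labelled KO and WT in the 7 conditions, with bars of 1 SE and filled points where the adjusted p was under 0.05. Filled points are Jak2 (0.32), Stat2 (0.41), Stat3 (0.41) and Socs3 (1.29) in Control 0 h, and no point is filled in the other 6 conditions.

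Whether the label difference of Control 0 h was larger than at the later Control times was tested directly. Against Control 2 h it was larger for Stat3 (0.49 ± 0.10, adjusted p = 0.00119) and Socs3 (1.42 ± 0.35, adjusted p = 0.0102), with 4.77% of all genes called. The Socs3 call was lost without KO Control 0 h library 1 (1.28) or 3 (1.13) or WT Control 0 h library 3 (0.99). Stat2 was at 0.52 ± 0.17 (adjusted p = 0.0627) and passed under every other scaling or tool run except RLE, for example with DESeq2 (0.53, adjusted p = 0.0338), and also without KO Control 0 h library 2 (0.60), KO Control 2 h library 1 (0.63) or WT Control 2 h library 3 (0.60). Against Control 24 h the label difference was larger for Stat3 (0.43 ± 0.10, adjusted p = 0.0137), with 1.83% of all genes called, a call lost without KO Control 0 h library 3 (0.39). Socs3 did not pass there (adjusted p = 0.109), but did with DESeq2 (1.42, adjusted p = 0.0183), with all genes of at least 1 count (1.41) and without KO Control 0 h library 2 (1.79).

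The count of 9 members called with LPS 2 h in KO against 5 in WT was not shown to differ between the labels. The interaction of label and LPS was called for 0 members at 2 h and 0 at 24 h by edgeR and by DESeq2, with 1 (Stat2) and 0 at an unadjusted p under 0.05. Stat2 had the lowest adjusted p at 2 h, with an LPS effect larger in KO by 0.44 ± 0.17 (adjusted p = 0.559), and Socs1 had 1.28 ± 0.69 (adjusted p = 0.717). Over all genes the interaction was called for 0% at 2 h and 0.0086% at 24 h. The interaction of label and palmitate was called for 0 members by either tool at 2 and 24 h, with 0 at an unadjusted p under 0.05, and for 0% of all genes at both times.

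Of 83 other pathway genes listed by role, 73 were tested. With LPS 42 rose and 5 fell at 2 h in WT, and 41 rose and 9 fell at 24 h, at a median log2 fold change of 0.38 and 0.47 against -0.01 for all genes at both times. In KO 42 rose and 6 fell at 2 h and 42 rose and 12 fell at 24 h. Over all genes 23.1% were called at 2 h and 39.5% at 24 h in WT, and 23.9% and 40.9% in KO, and the counts by role that follow are to be read against these shares. At 2 h in WT the ligands, the cytokines that feed the pathway, rose in 10 of the 11 tested, of 17 listed. The rest did not pass the filter on low counts. A ligand silent without LPS could pass it through LPS libraries alone, so the count does not describe the ligands as a set. The totals and medians of the whole list include these ligands. The list was also chosen with earlier results of these data known, so its totals and medians are a description and no test against all genes. Il12b, a subunit of IL-12 and IL-23, had 0, 3 and 0 counts in WT Control 2 h and 204, 275 and 307 in WT LPS 2 h. Il10, the anti-inflammatory cytokine that signals through STAT3, went from 1.94, 1.32 and 2.82 CPM to 29.0, 39.5 and 31.0 CPM (log2 4.01 ± 0.30, adjusted p = 3.54e-16). At 24 h 6 of 11 ligands rose, among them Ebi3, a subunit of IL-27 (1.22 ± 0.11).

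All 9 listed targets of interferon signalling rose at 24 h and 8 of 9 at 2 h in both genotypes, at WT medians of 5.85 and 4.17. The gene that was not called at 2 h was Irf7, an interferon regulatory factor, at -0.30 in WT and named after its value was seen. Ifit1, an antiviral interferon target, had 13.2, 11.1 and 11.4 CPM in WT Control 2 h and 567, 760.4 and 559 CPM in LPS 2 h (log2 5.73 ± 0.14, adjusted p = 3.32e-36). At 24 h it was at 515, 442 and 511 CPM, still above the 5.97 to 7.86 CPM of Control. Rsad2, another antiviral target, was at 5.66 ± 0.14 at 2 h, when the WT difference of Stat2 was 0.37. Irf9, a partner of STAT2, differed by 0.71 ± 0.11 at 2 h and 1.52 ± 0.11 at 24 h in WT. Usp18, an interferon target that shuts off the type I interferon receptor, had 6.18, 7.71 and 5.39 CPM in WT Control 24 h and 214, 219 and 227 CPM in LPS 24 h (5.10 ± 0.20).

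The other SOCS genes had smaller differences than Socs1, Socs3 and Cish at 2 h in WT. Of 5 tested at LPS 2 h in WT, 3 rose and 1 fell, with Socs7 at 0.94 ± 0.12 and Socs6 at -0.58 ± 0.12, and at 24 h 0 rose and 1 fell (Socs6, -1.42 ± 0.12). The other kinases were changed less than Jak2 at 2 h, with Tyk2 at 0.28 ± 0.10, and at 24 h Jak3, the kinase of the common gamma chain, was at 1.02 ± 0.19. Among 21 receptors tested, 7 rose and 2 fell at 2 h in WT (23.1% of all genes called) and 13 rose and 5 fell at 24 h (39.5%). Il2rg, the common gamma chain, was at 2.32 ± 0.15 at 24 h and Il7r, the IL-7 receptor chain, at -1.52 ± 0.15, while Il6ra, the IL-6 receptor chain, was at -0.65 ± 0.12 at 2 h.

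The 4 listed STAT3 targets rose at 2 h in WT, with Il1rn, the IL-1 receptor antagonist, at 2.30 ± 0.14, and 3 rose at 24 h (Il1rn 3.86 ± 0.17). The 2 listed STAT5 targets went opposite ways at 2 h. Bcl2l1, which encodes a survival protein, was lower (-0.48 ± 0.08, adjusted p = 2.77e-06, in WT and -0.80 ± 0.08, adjusted p = 8.44e-12, in KO). Pim1, which encodes a survival kinase, was higher, at 30.2, 39.2 and 39.9 CPM in WT Control 2 h and 310.2, 337 and 309 CPM in LPS 2 h (3.12 ± 0.11), against 1.02 ± 0.14 at 24 h. Among 4 STAT6 targets tested, Mrc1, the mannose receptor, fell at 24 h (-2.17 ± 0.12 in WT and -2.36 ± 0.12 in KO), as did Egr2 (-2.03 ± 0.22 and -2.74 ± 0.21), which had risen at 2 h (1.93 ± 0.14), while Arg1, arginase, was called higher at 24 h on few counts (4, 1 and 0 in WT Control and 5, 28 and 14 in WT LPS).

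**Figure D5:**
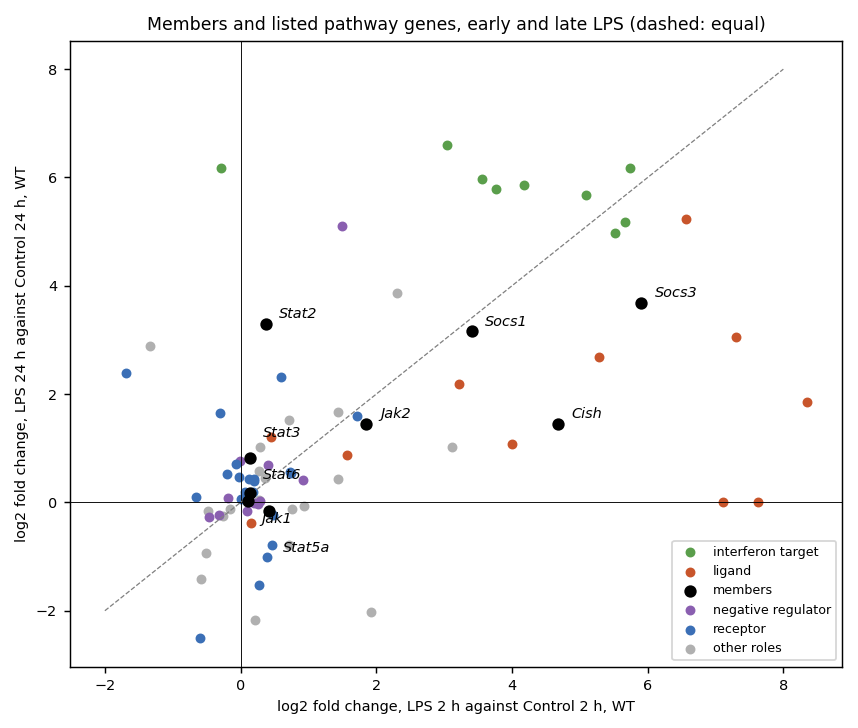
Log2 fold change for LPS in WT at 2 h (horizontal axis) and 24 h (vertical axis), each against Control of the same time, for the 9 members (black, named) and other listed pathway genes tested, coloured by role, with a dashed line of equal change. All 3 SOCS members and most ligands lie below the line, Stat2, Stat3 and most interferon targets above it, and points of genes with few counts are fitted values. For Socs1 the difference between the times was not called in WT (-0.24 ± 0.90, SE).

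With palmitate 0 of the 73 listed genes were called, except Bcl2l1 at 24 h in KO (-0.29 ± 0.08, adjusted p = 0.048). Between the labels in Control 0 h 2 of the 73 were higher and 5 lower in KO, where 12.5% of all genes were called, so that the share called in the list was no higher than over all genes. The higher genes were Il10ra, the IL-10 receptor chain (0.27 ± 0.07), and Nfil3, a STAT3 target (0.84 ± 0.24). The lower genes were Socs6 (-0.41 ± 0.10), Ptpn1, a phosphatase that acts on JAK2 (-0.28 ± 0.06), Mrc1 (-0.54 ± 0.10), Il1rn (-0.54 ± 0.16) and Il7r (-0.38 ± 0.12). Chil3, a STAT6 target, was higher in KO in Control 2 h (2.20 ± 0.39), Control 24 h (1.64 ± 0.34), palmitate 2 h (1.81 ± 0.35) and LPS 2 h (2.12 ± 0.38). The granulocyte precursor markers moved with it, for example at 64.5 to 125 CPM in KO Control 2 h and 19.3 to 32.9 CPM in WT Control 2 h, and their part was not tested. The other 2 calls were Gbp2, an interferon target, at LPS 2 h (0.48 ± 0.12, adjusted p = 0.034) and Pim1 at LPS 24 h (0.54 ± 0.12, adjusted p = 0.0257).

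The genes whose 14 group means of log2 CPM most resembled each member were found by Pearson's r among the 7751 genes that averaged 10 CPM or more. The points share libraries and include the 4 LPS groups, so the coefficients are a description. Socs3 was most like Icam1 (0.992) and Peli1 (0.991), Socs1 like Cd69 (0.986) and Traf1 (0.985), and Cish like Tnfaip3 (0.985) and Mtmr14 (0.984). Jak2 was most like Il1b (0.996) and Birc3 (0.996), and Jak1 like Dnajb6 (0.965) and Egr1 (0.961). Stat2 was most like Eif2ak2 (0.997) and Tor3a (0.995), Stat3 like Cmklr1 (0.966) and Azi2 (0.965), Stat6 like Sar1a (0.947) and Rbpj (0.945), and Stat5a like Usp38 (0.874) and Mapk1ip1l (0.852). Among the members themselves Jak2 and Socs3 (r = 0.977), Jak2 and Socs1 (0.972), Socs1 and Socs3 (0.955), Jak1 and Cish (0.937) and Stat2 and Stat3 (0.923) lay high. The lowest coefficients were those of Stat2 and Stat5a (-0.0364), Jak1 and Stat2 (0.0151), Stat3 and Stat5a (0.0394) and Stat2 and Cish (0.0465).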

How the data were processed

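RNA-seq libraries of BMDM were made by the authors from total RNA with a stranded, ribodepleted kit and sequenced in paired ends. The submitters' processing notes name fastp 0.19.11 and STAR 2.7.3a, and reads were aligned to mm10. The deposited values are raw counts per gene, not normalised by the authors. The annotation release and the strand setting of the counting are not given in the sources used here. Column names give the group and no replicate, so library numbers 1 to 3 follow column order, name a library and pair nothing. All columns matched a group. Of 37310 identifiers 32620 matched a symbol.

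The analysis of the counts used edgeR 4.0.16 (R 4.3.3). The filterByExpr filter left 11624 genes, which held 99.9% of counts. After TMM scaling, all 42 libraries entered a single quasi-likelihood fit that gave each group its own mean. Adjusted p-values are Benjamini-Hochberg values over 11624 genes, called under 0.05, and the SE is the log2 fold change divided by the square root of F. A log2 fold change of a gene with few counts depends on the prior count of the fit. Ratios of summed counts with exact 95% intervals are therefore given for the inhibitors in several comparisons. Levels per kilobase used the union of exons in the GENCODE annotation of GRCm38 or the longest transcript. Promoters of all 9 members came from RefSeq (GRCm38.p6). The tests were tested on simulated data. The members, the 83 other genes and the marker lists were chosen with earlier results of these data known. A listed gene that is not reported here is in the counts of the list and is left out of the plot.

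Named genes were the members, Irf5, at most 2 listed pathway genes per direction and role with the smallest adjusted p in an LPS or genotype comparison (2 per direction with palmitate), and the 2 genes most like each member. Alternatives were RLE scaling, library totals alone, all genes with at least 1 count, only the libraries compared, DESeq2 1.42.0, and leaving out each library. The depth of each library limits Socs1 and Cish most, since 3 counts are 0.387 to 1.05 CPM.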

Additional observations from a re-analysis of the deposited data

Results flagged for a closer look

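Differences of an LPS effect between 2 h and 24 h, tested as a contrast of both effects by edgeR's quasi-likelihood test, were called for the members below. Of all genes 32.6% were called in WT and 33.4% in KO. The calls of Jak1 in KO and Stat5a in WT passed narrowly and were lost without most single libraries. Those of Socs1 in KO and Cish in WT were lost without some. In WT the LPS effect at 24 h minus that at 2 h, on the log2 scale, was -0.40 for Jak2, 2.93 for Stat2, 0.68 for Stat3, -0.58 for Stat5a, -2.21 for Socs3 and -3.22 for Cish. In KO it was -0.19 for Jak1, -0.70 for Jak2, 2.30 for Stat2, 0.52 for Stat3, -2.07 for Socs1, -2.15 for Socs3 and -4.00 for Cish.

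Differences of the label effect between Control times were tested in the same way. KO minus WT at Control 0 h exceeded that at Control 2 h by 0.49 for Stat3 and 1.42 for Socs3, and that at Control 24 h by 0.43 for Stat3. Of all genes 4.77% were called against Control 2 h and 1.83% against Control 24 h. The fibroblast markers that were higher in KO Control 0 h (41.6 to 68.7 CPM) were also present in KO Control 2 h (72.1 to 118 CPM) and in KO Control 24 h (38.9 to 133 CPM). In WT they summed to 0.397 to 0.905 CPM in Control 0 h, 1.16 to 58.4 CPM in Control 2 h and 2.57 to 45 CPM in Control 24 h. Their part in the result was not tested.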

How the results depend on the processing

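Of 243 results (a member in a comparison), 51 were called, and of 692 alternative values of these 614 kept the direction and the call, 78 kept the direction and lost the call, and 0 reversed. Of 2595 alternative values of results not called, 13 were called and 156 changed sign without a call in either. A further 34 alternatives, counted over called and uncalled results together, could not be tested and are in neither total. At LPS 2 h in KO 5 members in place of 9 were called on library totals alone, 6 with all genes of at least 1 count, 6 with only the libraries compared, and 6 to 9 when 1 library was left out (6 without KO Control 2 h library 1 or KO LPS 2 h library 1). The genotype difference of Control 0 h against Control 24 h gave 2 members in place of 1 with all genes of at least 1 count and with DESeq2, and 0 to 2 when 1 library was left out. Leaving out 1 library gave 2 to 4 members in place of 4 for KO against WT in Control 0 h, 2 to 4 in place of 4 for Control 2 h against 0 h, and 1 to 3 in place of 2 for the genotype difference of Control 0 h against Control 2 h. Over all genes, library totals moved the split of calls at LPS 2 h from 1628 higher and 1058 lower to 1045 and 2476 in WT and from 1711 and 1065 to 1152 and 2828 in KO, and in KO against WT at Control 0 h from 744 and 704 to 1195 and 358. For Control 24 h against 0 h the split moved from 918 and 1002 to 1679 and 581, and for the LPS effect at 24 h against 2 h from 1686 and 2100 to 2263 and 1719 in WT and from 1667 and 2213 to 2268 and 1779 in KO. The cause was not tested. No paired analysis was possible because the columns carry no replicate numbers. Depth limits Socs1 and Cish outside LPS, with 0 to 15 counts per library. It also limits Cish at LPS 24 h, with 12, 7 and 3 counts in WT and 4, 1 and 9 in KO.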
